A study of Mus musculus with 12 samples.

Results

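The Bcl2 family decides at the mitochondrion whether a cell starts apoptosis. Here 10 of its genes were followed in mouse 2-cell embryos cultured with a tankyrase inhibitor or its solvent. They were chosen by gene symbol from the 24918 gene entries of the RNA-seq table, and all 10 were found. The prosurvival genes were Mcl1, Bcl2l1 (Bcl-x), Bcl2l10 (also called Diva or Boo) and Bcl2. The effectors were Bax and Bak1, and the BH3-only genes were Bid, Bcl2l11 (Bim), Bbc3 (Puma) and Pmaip1 (Noxa).

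B6SJLF1/J males sired the embryos, whose mothers were NSA(CF-1) females, and pronuclear-stage embryos were taken 16 to 20 h after an injection of human chorionic gonadotropin. They were cultured in KSOM medium under 5% oxygen with either 50 µM IWR1-endo (IWR1), a small molecule that inhibits tankyrase, or the solvent DMSO, until 46 h after that injection. Each group had 4 RNA-seq libraries, every one an independent collection of 10 pooled embryos, and 2 ATAC-seq libraries of 100 pooled embryos each. ATAC-seq finds open chromatin as the DNA that a transposase can reach. The RNA-seq columns are numbered 5 to 8 for IWR1 and 1 to 4 for DMSO, and libraries are named by these numbers.

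Total gene counts were 17963977 to 32931800 in IWR1 and 16606155 to 49672143 in DMSO. Pearson correlations of log2 expression across 14994 genes were 0.882 to 0.919 within groups and 0.687 to 0.824 between groups. The embryo identity given in the labels was checked with 12 oocyte and 2-cell markers, of which Oog1 had no count in any library. Their summed level was 20233 to 26929 FPKM (here, counts scaled by gene length and by the library's total count) in IWR1 and 2810 to 6016 FPKM in DMSO. Most of each sum came from Btg4 and Tcl1. Btg4 was at 8320 to 13132 FPKM in IWR1 and 618 to 2007 FPKM in DMSO. Tcl1 was at 10221 to 12220 FPKM in IWR1 and 1326 to 3477 FPKM in DMSO. Of the 11 markers tested, 8 were higher and 2, Zp3 and Dppa2, were lower in IWR1. Over all genes tested, 23.3% were higher and 25.4% lower.

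A pooled library gives each gene's share of the RNA present. Fewer cells of a type and less RNA per cell therefore cannot be told apart, and amounts per embryo are unknown.

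Prosurvival proteins of the family hold the effectors Bax and Bak inactive at the mitochondrial outer membrane. BH3-only proteins respond to stress by occupying the prosurvival proteins or by activating the effectors, which then form pores that release cytochrome c. Pairing is selective. Noxa binds Mcl1 and promotes its degradation, whereas Bim and Puma bind all the main prosurvival proteins. Around the 2-cell stage the mouse embryo replaces stored maternal transcripts with its own.

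Start-site windows are printed for Bcl2l11, the member with a changed chromatin region over an annotated start site, and for Mcl1, Bax and Bid, the members whose transcripts fell. Each is RefSeq's 250 bases before and 50 after an annotated start site in GRCm38.p6, 5′ to 3′ along the gene's strand. RefSeq windows were matched for 8 of the 10 genes, all but Bcl2l10 and Pmaip1. Capitals mark matches on either strand to the GC box, written GGGCGG, to the E-box, a sequence written CACGTG, or to the element named CCAAT box after its letters. None of the marked matches shared a base with another. The Bcl2l11 window is chr2:128125788-128126087 on the plus strand, and the Mcl1 window is chr3:95658471-95658770 on the plus strand. The Bax window is chr7:45466849-45467148 on the minus strand, and the Bid window is chr6:120916775-120917074 on the minus strand.
Bcl2l11: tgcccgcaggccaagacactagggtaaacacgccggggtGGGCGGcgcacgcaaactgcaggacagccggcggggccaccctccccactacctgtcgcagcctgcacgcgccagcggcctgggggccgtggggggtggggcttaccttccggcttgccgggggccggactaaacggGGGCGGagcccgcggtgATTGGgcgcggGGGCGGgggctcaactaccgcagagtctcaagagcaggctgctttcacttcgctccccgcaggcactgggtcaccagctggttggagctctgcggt
Mcl1: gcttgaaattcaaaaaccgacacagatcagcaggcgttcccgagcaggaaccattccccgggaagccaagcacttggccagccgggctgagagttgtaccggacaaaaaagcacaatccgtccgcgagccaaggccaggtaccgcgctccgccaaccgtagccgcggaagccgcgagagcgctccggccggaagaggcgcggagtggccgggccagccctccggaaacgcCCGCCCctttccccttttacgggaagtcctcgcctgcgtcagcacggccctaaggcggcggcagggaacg
Bax: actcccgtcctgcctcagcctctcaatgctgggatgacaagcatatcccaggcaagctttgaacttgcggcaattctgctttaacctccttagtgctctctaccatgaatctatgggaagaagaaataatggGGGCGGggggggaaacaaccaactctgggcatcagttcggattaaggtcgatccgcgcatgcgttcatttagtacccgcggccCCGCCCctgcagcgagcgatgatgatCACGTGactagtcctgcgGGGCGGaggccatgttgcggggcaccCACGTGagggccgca
Bid: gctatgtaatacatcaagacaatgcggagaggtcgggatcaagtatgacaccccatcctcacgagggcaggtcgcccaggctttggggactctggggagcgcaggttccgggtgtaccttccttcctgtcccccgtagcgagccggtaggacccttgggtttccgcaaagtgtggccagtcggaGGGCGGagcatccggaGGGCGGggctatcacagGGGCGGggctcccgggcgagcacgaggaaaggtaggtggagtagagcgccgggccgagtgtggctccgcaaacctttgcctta
Of the 32851 RefSeq windows of 300 bases, 35.7% held GGGCGG, 37.4% held CCAAT and 7.15% held CACGTG. The Bcl2l11 window printed held 3 GC boxes and 1 CCAAT box (that of its other start site held 3 GC boxes and 2 CCAAT boxes), the Mcl1 window 1 GC box, the Bid window 3 GC boxes, and the Bax window 3 GC boxes and 2 E-boxes. A Tcf/Lef sequence searched in the same way (CTTTGAT) was in 3.73% of all windows and in no window of the 8 genes. All 3 windows of Bcl2l1, whose transcripts rose, held none of these motifs. Of their bases 49.3 to 55.7% were G or C, against 57.3 to 71.0% in the windows printed above. The Bcl2l1 windows lie between 152828440 and 152831978, inside the gene model, which ends 5′ at 152833803 on the minus strand. Pmaip1, the other member that rose, had no window, so this does not compare members that rose with those that fell. The Bak1 window, of a gene not tested, held none of these motifs either, at 58.3% G or C. The windows of Bcl2 and Bbc3, which did not pass the test, were at 74.7 to 78.0%. A match or its absence only describes these letters.

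The comparison of IWR1 with DMSO asked how transcript levels at the 2-cell stage differ after culture with a tankyrase inhibitor. Among the Bcl2 family genes, Pmaip1 and Bcl2l1 rose in IWR1 embryos, and Mcl1, Bax and Bid fell. Pmaip1 was 5.03-fold higher and Bcl2l1 2.23-fold higher, while Mcl1 was 3.07-fold, Bax 3.21-fold and Bid 2.02-fold lower. Changes thus ran both ways within the prosurvival genes and within the BH3-only genes. Bcl2l10, the most abundant member in both groups, Bcl2l11, Bbc3 and Bcl2 did not pass the test, and Bak1 was nearly absent and not tested.

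The test was edgeR's quasi-likelihood test on raw counts, two-sided, with Benjamini-Hochberg adjustment over the 14994 genes that passed a filter on low counts and a threshold of 0.05. It called 5 of the 9 members tested, 2 higher and 3 lower, where 48.7% of all genes were called, 23.3% higher and 25.4% lower. The 5 called members were also those whose FPKM values did not overlap between groups, again 2 above and 3 below, where 50.2% of all genes did not overlap, 28.3% above and 22.0% below. The share of members that changed was thus near that of the whole table, and the results below concern which members moved and how far. The median log2 fold change of the 9 members was -0.15, and that of all genes was 0.17. That median was 0.34 when libraries were scaled by their totals alone and 0.04 when they were centred on their medians, so changes are relative to a shift of this size. FPKM values were computed from library totals, and log2 fold changes, given with a standard error (SE), were fitted after TMM scaling, edgeR's default library scaling.

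**Figure D1:**
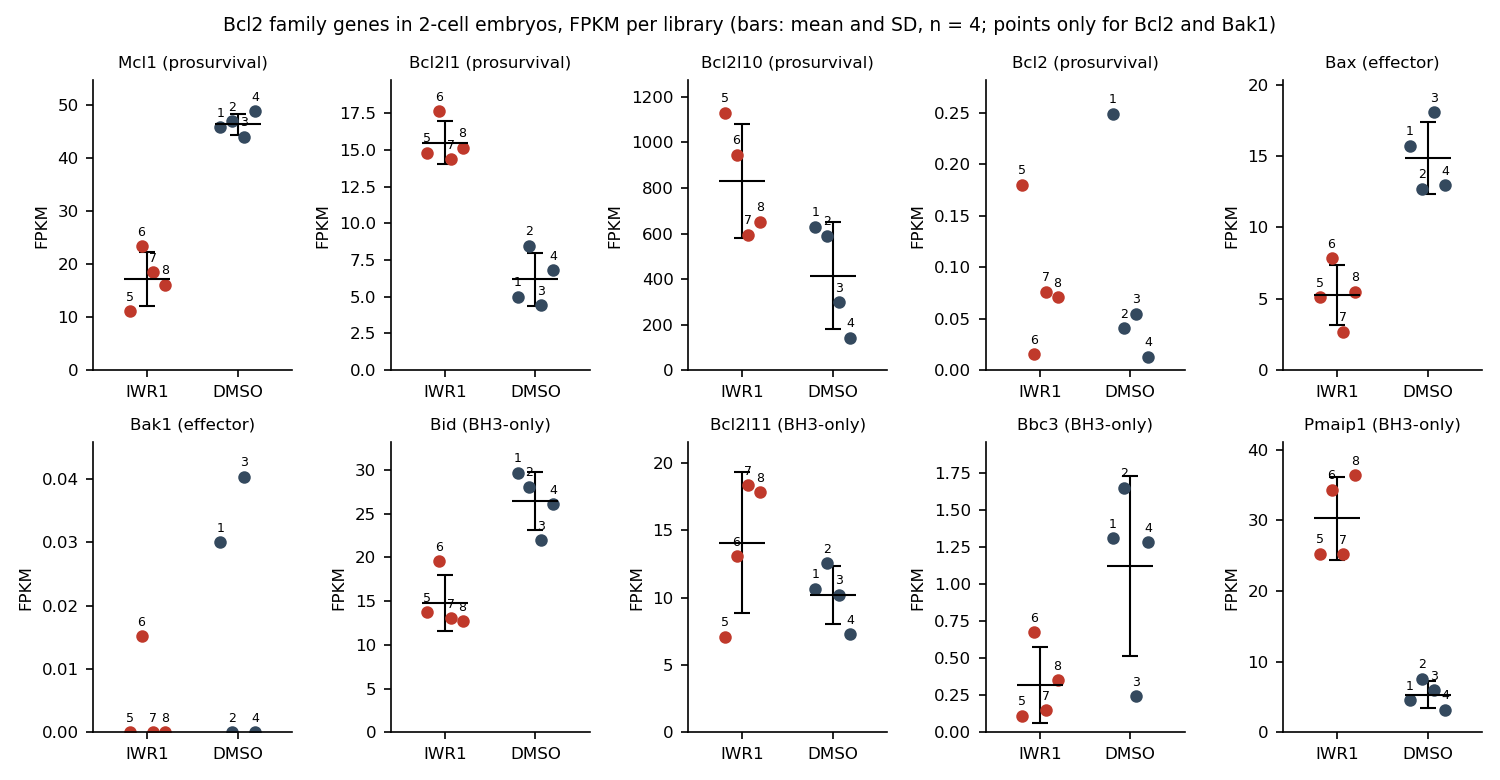
FPKM of each of the 10 Bcl2 family genes (vertical axes) in the 4 IWR1 and 4 DMSO libraries (points, labelled by library number); horizontal lines and bars give the mean and SD, except for Bcl2 and Bak1. For Pmaip1 all IWR1 points lie at 25.2 to 36.3 FPKM, above the DMSO points at 3.19 to 7.62 FPKM, while for Mcl1 all IWR1 points lie at 11.2 to 23.4 FPKM, below the DMSO points at 44.1 to 48.9 FPKM.

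Mcl1 encodes a short-lived prosurvival protein that mouse embryos need around implantation. Its level was 11.2, 23.4, 18.5 and 16.1 FPKM in IWR1 libraries 5 to 8, against 45.9, 47.0, 44.1 and 48.9 FPKM in DMSO libraries 1 to 4. Every IWR1 library lay below every DMSO library, and the IWR1 values spread over a 2.10-fold range, against a 1.11-fold range in DMSO. The log2 fold change was -1.62 (SE 0.21, adjusted p = 7.12e-05). It was -1.68 among the 4 libraries under 25000000 counts (IWR1 5 and 7, DMSO 1 and 2) and -1.55 among the 4 deeper ones.

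Bcl2l1 encodes Bcl-xL and, by alternative splicing, the proapoptotic Bcl-xS, which counts per gene do not separate. Its level was 14.8, 17.6, 14.4 and 15.1 FPKM in IWR1 libraries 5 to 8, against 5.01, 8.47, 4.43 and 6.81 FPKM in DMSO libraries 1 to 4. The IWR1 values lay close together and all above the DMSO values. Its log2 fold change was 1.16 (SE 0.22, adjusted p = 0.00103). In the 4 shallower libraries alone it was 1.09 and missed the threshold (adjusted p = 0.0559), and in the 4 deeper ones it was 1.24 and passed. The gene model (chromosome 2, 152758732 to 152833803) overlaps that of Cox4i2, a subunit of cytochrome c oxidase. Whether reads were counted by strand is not stated in the sources used here, so reads in the overlap could belong to either gene. Cox4i2 went the other way, at 1.20 to 3.34 FPKM in IWR1 and 2.34 to 12.4 FPKM in DMSO (log2 fold change -1.69, SE 0.61, adjusted p = 0.0373), although its groups overlapped.

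Bcl2l10 is an oocyte-enriched family gene whose mouse protein has been described both as prosurvival and as proapoptotic. It is counted with the prosurvival genes here, and sums are also given without it. Its level was 1131, 946, 594 and 652 FPKM in IWR1 libraries 5 to 8, against 630, 591, 298 and 142 FPKM in DMSO libraries 1 to 4. All IWR1 libraries but library 7 lay above all DMSO libraries, and the DMSO libraries spread over a 4.44-fold range. On the log2 scale the difference was 0.87 (SE 0.37, 95% interval 0.06 to 1.69, adjusted p = 0.0719) and did not pass. It differed between tools and between sets of libraries. In the authors' deposited table, made with DESeq2, it was 0.91 and passed (adjusted p = 0.0302). It was 0.48 in the shallower libraries (adjusted p = 0.35) and 1.52 in the deeper ones (adjusted p = 0.0360). Without DMSO library 1 it was 1.11 (adjusted p = 0.0419).

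Bcl2, the founding prosurvival gene, was close to the detection limit. It had 25, 4, 12 and 15 counts in IWR1 libraries 5 to 8, against 32, 6, 21 and 5 counts in DMSO libraries 1 to 4. These are 0.0157 to 0.180 FPKM in IWR1 and 0.0130 to 0.249 FPKM in DMSO. The log2 fold change of -0.15 had a 95% interval from -2.58 to 2.27 (adjusted p = 0.921), so a difference of several-fold in either direction could not be detected at this depth.

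Bax encodes the effector that moves from the cytosol to mitochondria on activation. Its level was 5.12, 7.83, 2.71 and 5.50 FPKM in IWR1 libraries 5 to 8, against 15.7, 12.7, 18.1 and 13.0 FPKM in DMSO libraries 1 to 4. All IWR1 values were lower than all DMSO values. The fitted log2 fold change was -1.68 (SE 0.37, adjusted p = 0.00241), from 48 to 224 counts per library in IWR1 and 210 to 776 in DMSO. It was -1.88 in the shallower and -1.55 in the deeper libraries.

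Bak1, the other effector of the set, had 1 count in IWR1 library 6 and none in the other IWR1 libraries, against 1 count in DMSO library 1, 4 in DMSO library 3 and none in DMSO 2 and 4. It did not pass the filter, and no fold is given. In this set the only effector detected at more than a few counts was thus Bax. The related effector Bok, chosen for mention after its values were seen, was at 2.62 to 6.13 FPKM in IWR1 and 0.748 to 1.43 FPKM in DMSO (log2 fold change 1.76, SE 0.49, adjusted p = 0.00971).

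Pmaip1 showed the largest change among the members. Noxa, its product, is a BH3-only protein that neutralises Mcl1. Its level was 25.3, 34.3, 25.2 and 36.3 FPKM in IWR1 libraries 5 to 8, against 4.52, 7.62, 5.99 and 3.19 FPKM in DMSO libraries 1 to 4. The lowest IWR1 library stood well above the highest DMSO library. The log2 fold change was 2.33 (SE 0.27, adjusted p = 4.07e-05). It was 2.03 in the shallower and 2.61 in the deeper libraries.

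Bid encodes a BH3-only protein that caspase-8 cleaves into an active fragment, linking death receptors to mitochondria. Its level was 13.7, 19.5, 13.1 and 12.7 FPKM in IWR1 libraries 5 to 8, against 29.7, 28.0, 21.9 and 26.1 FPKM in DMSO libraries 1 to 4. Library 6 was the highest in IWR1 and still lay below all DMSO libraries. Its log2 fold change was -1.01 (SE 0.20, adjusted p = 0.00127). It was -1.13 in the shallower libraries and -0.89 in the deeper ones, where it missed the threshold (adjusted p = 0.0737).

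Bcl2l11 encodes Bim, made as several splice forms that are not separated here. Its level was 7.10, 13.1, 18.4 and 17.8 FPKM in IWR1 libraries 5 to 8, against 10.7, 12.5, 10.2 and 7.31 FPKM in DMSO libraries 1 to 4. IWR1 libraries 6, 7 and 8 lay above every DMSO library, and IWR1 library 5 below every one. On the log2 scale the difference was 0.29 (SE 0.27, 95% interval -0.29 to 0.86, adjusted p = 0.395). Its gene model overlaps the end of Acoxl, an acyl-CoA oxidase-like gene on the same strand, which was at 0.994 to 2.63 FPKM in IWR1 and 0.601 to 1.14 FPKM in DMSO (log2 fold change 0.79, SE 0.49, adjusted p = 0.205).

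Bbc3 encodes Puma, a p53 target that binds all the main prosurvival proteins. It had 4, 44, 6 and 19 counts in IWR1 libraries 5 to 8 (0.113, 0.676, 0.149 and 0.351 FPKM). In DMSO libraries 1 to 4 it had 43, 62, 24 and 126 counts (1.31, 1.65, 0.246 and 1.28 FPKM). All IWR1 libraries lay below DMSO libraries 1, 2 and 4, and DMSO library 3 fell among them. The log2 fold change of -1.93 (SE 0.86, 95% interval -3.80 to -0.06) did not pass (adjusted p = 0.0818). In the authors' deposited table it was -1.90 and passed (adjusted p = 0.0456), and without DMSO library 3 it was -2.23 (adjusted p = 0.0471). The shallower libraries gave -3.49 (adjusted p = 0.053) and the deeper ones -0.85 (adjusted p = 0.65).

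**Figure D2:**
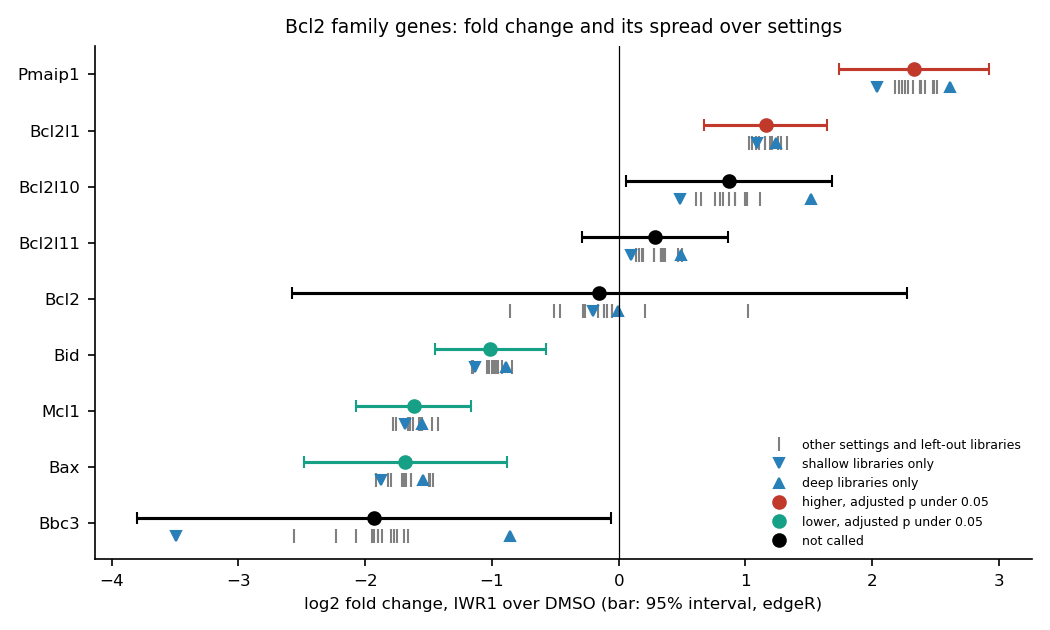
Log2 fold change of IWR1 over DMSO (horizontal axis) for the 9 Bcl2 family genes tested; points with bars give the edgeR estimate and its 95% interval, and the small marks below give the value under each other setting. Pmaip1 (2.33) and Bcl2l1 (1.16) stay right of 0 and Bid (-1.01), Mcl1 (-1.62) and Bax (-1.68) left of 0 in all settings drawn, while the marks of Bcl2 fall on both sides.

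The authors' deposited table gave the same direction for all 9 tested members. For those called by both, its log2 fold changes were 2.38 for Pmaip1, 1.21 for Bcl2l1, -0.97 for Bid, -1.57 for Mcl1 and -1.64 for Bax. That table rests on the same libraries and is no independent support.

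The order of the members by level differed between the groups. In IWR1 Bcl2l10 led, followed by Pmaip1 at a mean of 30.3 ± 5.88 FPKM (SD, n = 4). Mcl1 (17.3 ± 5.09), Bcl2l1 (15.5 ± 1.47), Bid (14.8 ± 3.20) and Bcl2l11 (14.1 ± 5.23 FPKM; SD, n = 4 each) came next, and their ranges overlapped. Bax (5.29 ± 2.10 FPKM) was lower, and Bbc3 and Bcl2 were the lowest detected in all libraries. In DMSO Bcl2l10 led as well, followed by Mcl1 (46.5 ± 1.98), Bid (26.4 ± 3.34), Bax (14.9 ± 2.52) and Bcl2l11 (10.2 ± 2.16 FPKM; SD, n = 4 each), and the ranges of these neighbours did not overlap. Bcl2l1 (6.18 ± 1.83 FPKM) and Pmaip1 (5.33 ± 1.91 FPKM) followed, with ranges that overlapped each other and that of Bcl2l11. Pmaip1 was thus the second most abundant member in IWR1 and the seventh in DMSO.

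Summed over Bax, Bak1, Bid, Bcl2l11, Bbc3 and Pmaip1, the proapoptotic level overlapped between the groups while its makeup differed. The sum was 51.3, 75.4, 59.5 and 72.7 FPKM in IWR1 libraries 5 to 8, against 61.9, 62.6, 56.5 and 50.8 FPKM in DMSO libraries 1 to 4. Pmaip1 made up 46.8% ± 3.51 of it in IWR1 and 9.08% ± 2.77 in DMSO (SD, n = 4 each). Bid made up 23.0% ± 4.25 in IWR1 and 45.7% ± 5.29 in DMSO, and Bax 8.12% ± 2.68 in IWR1 and 25.8% ± 4.77 in DMSO (SD, n = 4 each). Of these 3 genes, none had a share in any IWR1 library that fell within its DMSO range. The share of Bcl2l11 was 21.6% ± 7.59 in IWR1 and 17.4% ± 2.35 in DMSO, with overlapping values, and that of Bbc3 was 0.462% ± 0.312 in IWR1 and 1.93% ± 1.02 in DMSO (SD, n = 4 each). Shares within one library do not depend on how libraries are scaled, and since the genes were chosen with results known no test is given.

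Among prosurvival transcripts, Bcl2l10 made up 95.9% ± 1.28 in IWR1 and 85.4% ± 9.50 in DMSO (SD, n = 4 each). Mcl1 made up 2.16% ± 0.842 in IWR1 and 12.9% ± 8.35 in DMSO. The sum of Mcl1, Bcl2l1 and Bcl2 was 26.2, 41.1, 32.9 and 31.3 FPKM in IWR1 libraries 5 to 8, against 51.2, 55.5, 48.6 and 55.7 FPKM in DMSO libraries 1 to 4. Divided by the proapoptotic sum, this gave 0.510, 0.544, 0.553 and 0.431 in IWR1, against 0.827, 0.887, 0.861 and 1.10 in DMSO. All IWR1 ratios were below all DMSO ratios. With Bcl2l10 counted as prosurvival the ratio was 22.5, 13.1, 10.5 and 9.39 in IWR1, against 11.0, 10.3, 6.14 and 3.89 in DMSO, and the groups overlapped with IWR1 on the higher side. Among these 10 genes, all IWR1 ratios thus lay below all DMSO ratios without Bcl2l10 but not with it. No ratio was computed with Bcl2l10 counted as proapoptotic. Other family genes described below are outside these sums, and they went both ways. Bik was at 20.7 to 40.1 FPKM in IWR1 and 3.12 to 14.0 FPKM in DMSO. Bnip3 was at 251 to 340 FPKM in IWR1 and 661 to 920 FPKM in DMSO. A balance over the whole family was not computed.

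**Figure D3:**
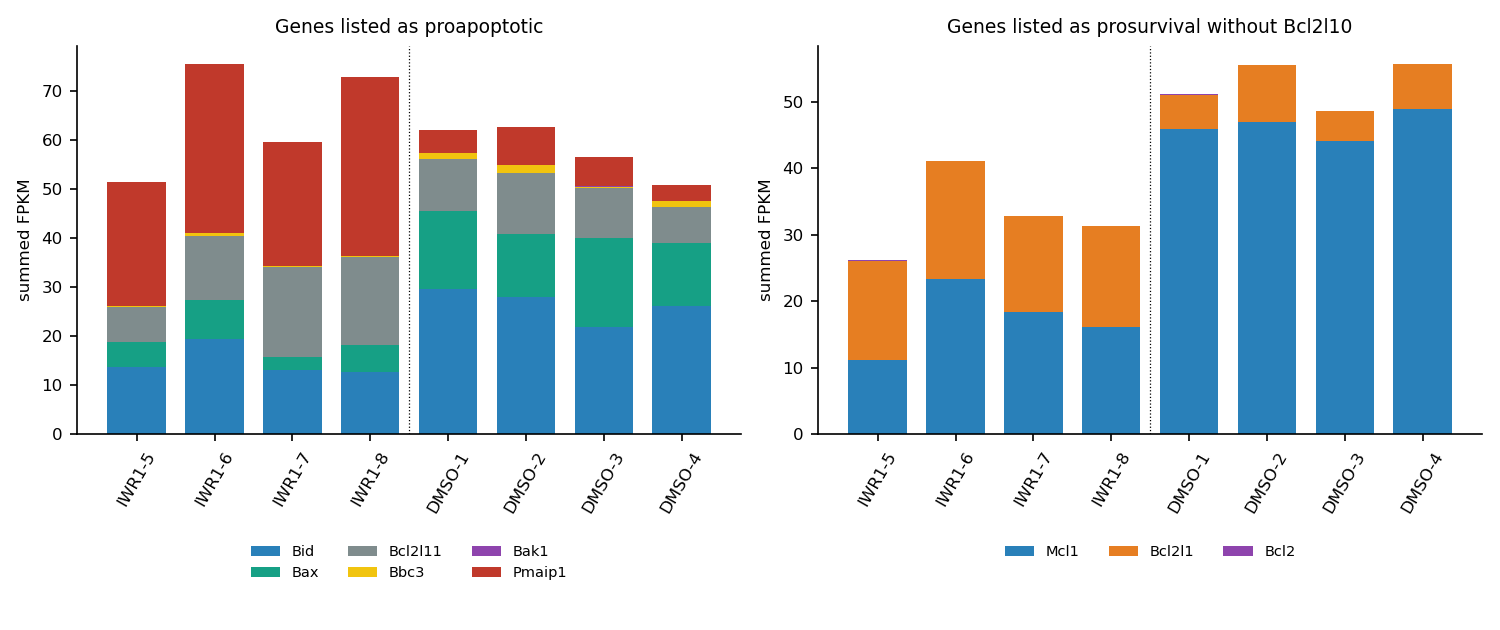
Summed FPKM (vertical axes) of the proapoptotic genes (left) and of the prosurvival genes without Bcl2l10 (right) in each IWR1 and DMSO library, stacked by gene. The proapoptotic sums of the groups overlap, with Pmaip1 the largest segment in every IWR1 library, and the prosurvival sums are 26.2 to 41.1 FPKM in IWR1, all below the 48.6 to 55.7 FPKM in DMSO.

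Further genes of the pathway were read from 7 lists with 83 genes in the table, of which 74 were tested. In IWR1 12 were higher (23.3% of all genes were) and 21 lower (25.4% of all genes), and their median log2 fold change was -0.28. The same shares of all genes stand beside the counts of each list below. The split depended on scaling, with 17 higher and 16 lower under library totals and 11 higher and 29 lower with median-centred libraries. These lists were chosen with earlier results of these data known, and genes outside the 4 smallest adjusted p-values of each list were named after their values were seen.

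Among 15 other Bcl2 family genes, 11 were tested, 2 rose and 5 fell (median -0.93). Bik, a BH3-only gene, was at 40.1, 27.6, 20.7 and 31.2 FPKM in IWR1 libraries 5 to 8, against 14.0, 7.71, 7.18 and 3.12 FPKM in DMSO libraries 1 to 4 (log2 fold change 1.76, SE 0.39, adjusted p = 0.00281). Like Pmaip1 it was higher in every IWR1 library, and Bok was the other gene to rise. Bnip3 and Bnip3l, BH3-like genes that also serve in mitophagy, both fell. Bnip3 was at 251, 305, 340 and 324 FPKM in IWR1 libraries 5 to 8, against 804, 661, 920 and 892 FPKM in DMSO libraries 1 to 4 (log2 fold change -1.63, SE 0.20, adjusted p = 4.7e-05). Bnip3l was at 54.8 to 61.4 FPKM in IWR1 and 116 to 137 FPKM in DMSO (log2 fold change -1.32, adjusted p = 4.61e-05). Bcl2l14 fell too (log2 fold change -1.83, adjusted p = 0.00137), and so did Bcl2l13, a mitophagy receptor (-0.78), and the prosurvival gene Bcl2l2, or Bcl-w (-1.59). Bcl2l2 was at 0.386 to 0.580 FPKM in IWR1 and 1.12 to 1.53 FPKM in DMSO. Bad was at 6.76 to 9.54 FPKM in IWR1 and 2.73 to 5.31 FPKM in DMSO but missed the threshold (adjusted p = 0.0548). Bcl2a1a, Bcl2a1b, Bcl2a1d and Hrk did not pass the filter.

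The 12 tested genes of the apoptosome, the caspases and caspase substrates had 0 higher and 5 lower by edgeR (median -0.73). At an unadjusted p under 0.05 these were 1 and 6, and DESeq2 called 1 higher, the initiator Casp8, and 6 lower. Dffa, the inhibitor of the caspase-activated DNase, was at 0.604 to 1.85 FPKM in IWR1 and 3.70 to 8.54 FPKM in DMSO (log2 fold change -2.61, SE 0.44, adjusted p = 0.000408). Parp1 (-1.20), a caspase substrate that repairs DNA, Aifm1 (-0.86), a mitochondrial oxidoreductase, and Apaf1 (-0.83), the scaffold of the apoptosome, also fell. Apaf1 missed the threshold when libraries were scaled by their totals (adjusted p = 0.0604) and without IWR1 library 6 (-0.73, adjusted p = 0.0528). Of 10 inhibitors of apoptosis and their antagonists, 0 were higher and 2 lower by edgeR (median -0.32), 1 and 4 at an unadjusted p under 0.05, and 1 and 2 by DESeq2. Diablo (Smac), released from mitochondria to relieve caspases from inhibition, was at 18.5, 26.8, 24.8 and 21.7 FPKM in IWR1 libraries 5 to 8, against 75.6, 63.8, 88.1 and 86.9 FPKM in DMSO libraries 1 to 4. All IWR1 values lay below all DMSO values (log2 fold change -1.98, SE 0.21, adjusted p = 2.25e-05). Its target Xiap was at 3.99 to 6.89 FPKM in IWR1 and 6.57 to 8.71 FPKM in DMSO (log2 fold change -0.79, adjusted p = 0.0132). Htra2, the gene higher by DESeq2 (0.77, adjusted p = 0.0556 by edgeR), and Birc6 (-0.59, adjusted p = 0.0616) missed the threshold.

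In the death receptor branch 9 genes were tested, 3 rose and 1 fell (median 0.82). Cflar (c-FLIP), which restrains caspase-8, was at 10.7, 10.0, 10.2 and 8.99 FPKM in IWR1 libraries 5 to 8, against 2.65, 3.83, 2.39 and 1.65 FPKM in DMSO libraries 1 to 4 (log2 fold change 1.77, SE 0.23, adjusted p = 7.86e-05). Ripk1, a kinase of the receptor complex, also rose (1.49, adjusted p = 0.00572), as did the receptor Tnfrsf1a, which stayed under 2 FPKM (0.288 to 1.76 FPKM in IWR1 and 0 to 0.122 FPKM in DMSO). The call for Tnfrsf1a was lost without IWR1 library 5 (log2 fold change 3.27, adjusted p = 0.0788). Traf2, an adaptor of the receptor, fell (-1.84, adjusted p = 0.0002). Fas and Fasl did not pass the filter.

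The 11 genes of the mitochondrial outer membrane and its dynamics had 3 higher and 2 lower (median 0.13). Mff, which recruits the fission machinery, was at 864, 799, 564 and 587 FPKM in IWR1 libraries 5 to 8, against 120, 142, 143 and 45.7 FPKM in DMSO libraries 1 to 4 (log2 fold change 2.47, SE 0.33, adjusted p = 8.59e-05). Vdac2, the channel that holds Bak and Bax at the outer membrane, was at 129 to 206 FPKM in IWR1 and 23.5 to 58.1 FPKM in DMSO (1.82, adjusted p = 0.000178), and Vdac3 rose as well (1.51, adjusted p = 0.000456). Mfn2, a fusion gene (-0.70, adjusted p = 0.0413), and Mtch2, the mitochondrial receptor of truncated Bid (-0.59, adjusted p = 0.0331), fell. The call for Mtch2 was lost without any single one of 5 libraries, DMSO 1, 3 and 4 and IWR1 5 and 8 (adjusted p up to 0.115), and with library totals (adjusted p = 0.136). That for Mfn2 was lost with library totals (adjusted p = 0.117) and without any single library but DMSO 1 (adjusted p up to 0.113).

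Of 9 tested regulators of Mcl1 and BH3-only protein turnover, 2 rose and 4 fell (median -0.42). March5, a mitochondrial ubiquitin ligase reported to promote Mcl1 and Noxa turnover, was at 197, 229, 172 and 168 FPKM in IWR1 libraries 5 to 8, against 78.9, 72.0, 79.7 and 57.4 FPKM in DMSO libraries 1 to 4 (log2 fold change 1.23, SE 0.19, adjusted p = 0.00021). Tpt1 (TCTP), described as a stabiliser of Mcl1, also rose (0.45, adjusted p = 0.043). The ubiquitin ligase subunits Fbxw7 (-1.42), Btrc (-1.38) and Fbxw11 (-1.38) fell, and so did the kinase Gsk3b (-0.55, adjusted p = 0.03). Huwe1 (-0.42, adjusted p = 0.0568) and Usp9x (0.05, adjusted p = 0.83) of the same list did not pass. Tpt1 missed the threshold with median-centred libraries (adjusted p = 0.17) and without any single library but DMSO 3 and 4 (adjusted p up to 0.113). Gsk3b missed it with library totals (adjusted p = 0.142) and without any single one of DMSO 1 and 4 and IWR1 5, 6 and 7 (adjusted p up to 0.0997). These values concern transcripts, and protein stability was not measured.

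Of 12 transcriptional regulators of the family, 2 rose and 2 fell (median 0.42). Trp73, a p53 relative that can activate Bbc3 and Pmaip1, was at 0.959 to 3.44 FPKM in IWR1 and 0.147 to 0.543 FPKM in DMSO (log2 fold change 2.83, SE 0.56, adjusted p = 0.00128). E2f1 rose too (0.78, adjusted p = 0.00603). Mdm2, the ubiquitin ligase of p53 and itself a p53 target, was at 38.6 to 48.2 FPKM in IWR1 and 72.8 to 95.5 FPKM in DMSO (-1.10, adjusted p = 0.000102), and Myc fell to 0.274 to 1.53 FPKM in IWR1, against 2.12 to 5.55 FPKM in DMSO (-2.21, adjusted p = 0.00383). Trp53 itself did not pass (0.58, adjusted p = 0.0953). Of the p53 targets Pmaip1, Bax and Bbc3, Pmaip1 was higher and Bax lower in IWR1, and Bbc3 did not pass the test.

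**Figure D4:**
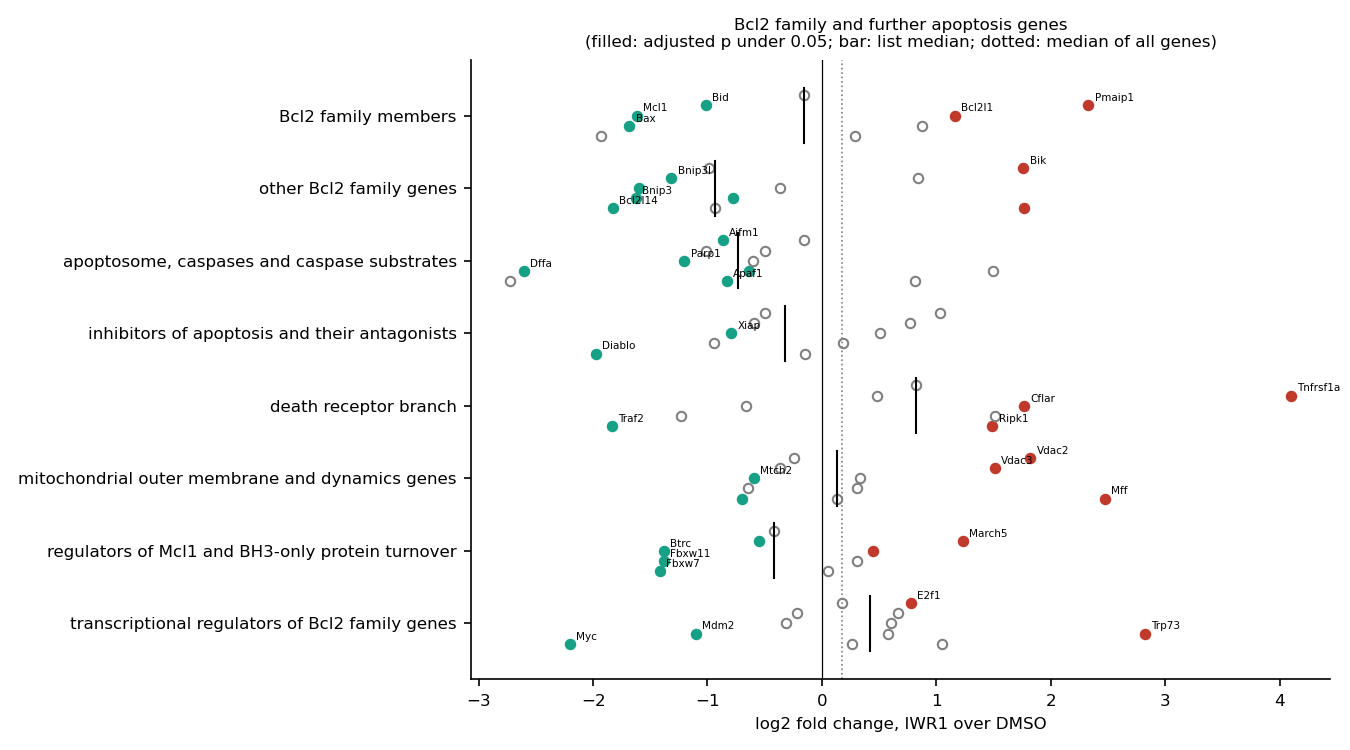
Log2 fold change of IWR1 over DMSO (horizontal axis) of each tested gene of the Bcl2 family set and of the 7 further apoptosis lists (rows); filled points passed the test (red higher, green lower in IWR1), short bars give list medians and the dotted line the median of all genes, 0.17. Called genes lie on both sides in every row but the apoptosome and inhibitor rows, where all called genes are lower, 5 and 2.

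Chromatin near the members was read from the authors' lists of 2345 regions more open and 1400 regions less open in IWR1 than in DMSO. These lists give positions in mm10 only, with no value per library, so no size or error can be given. A more open region overlapped 2 of the 10 genes, Bcl2l11 and Bid, where 7.43% of 21900 protein-coding genes were overlapped by one, and within 10 kb the count stayed at 2, where the share was 11.7%. No less open region overlapped a member, where 3.05% of protein-coding genes were overlapped, and none lay within 10 kb of one, where 4.89% of protein-coding genes had one.

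The region at Bcl2l11 spans chr2:128125401-128126514. It reaches from 637 bases upstream to 476 bases downstream of the RefSeq start site at 128126038 and holds the whole window printed above. The other annotated start site of Bcl2l11, at 128127575, and its window lie outside the region. Bcl2l11 (chromosome 2, 128126038 to 128162547) was the member with such a region over an annotated start site, and its transcripts did not pass the test. The region also covers the end of Acoxl, whose gene model runs to 128126252. The region at Bid spans chr6:120910929-120912173, inside the gene (chromosome 6, 120893119 to 120917062) and 4651 bases downstream of the start site at 120916824. Whether it lies in an intron or an exon was not examined here. Bid transcripts fell.

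Farther away, within 100 kb, 5 members had a more open region, where 33.0% of protein-coding genes did, and 2 had a less open one, where 17.5% did. Bcl2l10 (chromosome 9, 75347758 to 75351640) had 3 less open regions, at 19.3, 66.9 and 70.9 kb, and Bcl2 had 1, at 37.0 kb. More open regions lay 67.6 kb from Mcl1 (chromosome 3, 95656944 to 95663179), 48.2 kb from Bax (chromosome 7, 45461695 to 45466903) and 79.3 kb from Bak1. Neither Pmaip1 nor Bcl2l1, the members that rose, had a listed region within 100 kb.

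**Figure D5:**
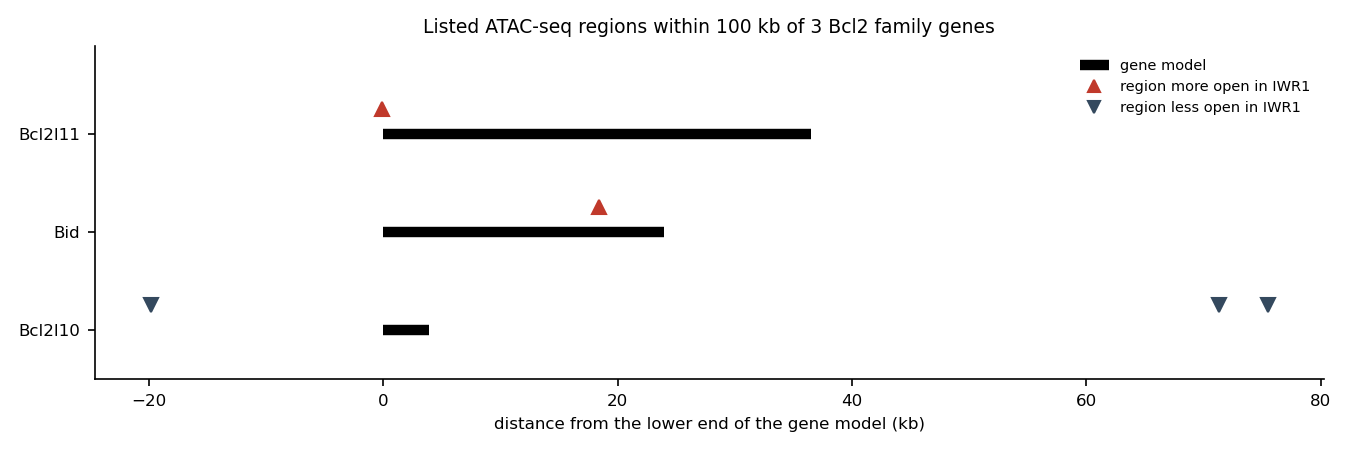
ATAC-seq regions from the authors' lists within 100 kb of Bcl2l11, Bid and Bcl2l10; the horizontal axis gives the distance of each region's centre from the lower end of the gene model in kb, black bars are gene models, upward triangles more open and downward triangles less open regions in IWR1. A more open region sits at the start of Bcl2l11 and another inside Bid, and 3 less open regions flank Bcl2l10.

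The tested genes most like Pmaip1 in log2 CPM (counts scaled by library size) over the 8 libraries were Trim75 (Pearson r = 0.995), Nav3 (0.994) and Asnsd1 (0.993), and those most like Mcl1 were Cope (0.998), Wdr53 (0.996) and Yrdc (0.995). They are the highest of 14994 genes, the libraries share depth and treatment, and the values are a description with no test.

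Some markers of other cells differed between the groups. For comparison, the test called 23.3% of its 14994 genes higher and 25.4% lower. Of 7 sperm markers 4 were tested and 3 rose (Prm1, Prm2 and Tnp1), with a summed level of 12.2 to 26.3 FPKM in IWR1 and 0.677 to 1.91 FPKM in DMSO, and Smcp was at 0 in all libraries. Of 11 leukocyte and myeloid markers 6 were tested, 4 rose (Cd68, Lyz2, Cd74 and Laptm5) and Itgam fell, with sums of 50.0 to 67.8 FPKM in IWR1 and 7.03 to 9.83 FPKM in DMSO. Their defining genes Ptprc and Tyrobp were at 0 in all libraries, and Csf1r had 1 count in IWR1 and 0 in DMSO. Of 13 cumulus and granulosa markers 6 were tested, Tnfaip6 rose, and Amhr2 and Nr5a2 fell. This share called was near the 48.7% of all genes called either way. The marker sums were 23.0 to 30.8 FPKM in IWR1 and 34.1 to 53.8 FPKM in DMSO, with Inhba and Amh at 0 in all libraries. Fshr was at 0 to 0.695 FPKM in IWR1 and 0 in DMSO, and Inha at 0 in IWR1 and 0 to 0.509 FPKM in DMSO. Most of each sum came from Amhr2 and Nr5a2, whose cell of origin was not examined. Amhr2 was at 9.14 to 12.4 FPKM in IWR1 and 17.2 to 34.0 FPKM in DMSO. Nr5a2 was at 4.83 to 8.63 FPKM in IWR1 and 10.3 to 16.9 FPKM in DMSO. Whether such cells were present was not tested. The part of them, or of stored maternal transcripts such as Btg4 (10223 ± 2129 FPKM in IWR1 and 1455 ± 603 FPKM in DMSO, SD, n = 4 each), in the family's values was not tested either.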

How the data were processed

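RNA-seq was read from 4 IWR1 and 4 DMSO libraries. The authors' deposited table gives raw counts per gene, not normalized per the file headers. Per the submitters' processing notes the build was mm10, and STAR 2.5.1b, featureCounts 1.5.0-p1 and DESeq2 are among the tools named for the series, along with cutadapt, Trim Galore, Bowtie2 2.2.6 and MACS2, without a role. Per the file headers, the deposited log2 fold changes and p-values come from DESeq2, and they are quoted only where named. The authors' ATAC-seq lists give positions only. Whether those count from 0 or 1, and how regions were selected, is not stated in the sources used here.

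IWR1 columns carry numbers 5 to 8 while the labels number samples 1 to 4, so they were assigned to the group only, and the other 16 per-library columns were left unused. Of 24918 entries, 0 name no gene and 4838 had no count. FPKM was computed here from counts, the deposited gene length and the total count. edgeR 4.0.16 in R 4.3.3 (filterByExpr, TMM, quasi-likelihood, treatment only) tested 14994 genes, and was first tested on simulated data. The SE is the log2 fold change divided by the square root of F. Alternatives were DESeq2 1.42.0, other scalings, no filter (at least 1 count), leaving out each library, and the shallower and the deeper libraries alone, split at 25000000 counts, a boundary set after the totals were seen.

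The members and the lists were chosen with earlier results of these data known. Named genes were all members, the 4 smallest adjusted p-values of each list and the 3 genes most correlated with Pmaip1 and Mcl1; others were named after their values were seen, and 1 gene counted in a list is not reported by name here. The labels call the collections independent, and p-values weigh the difference between treatments against the spread between these libraries. Gene positions and sequences are from RefSeq (GRCm38.p6, the mm10 assembly).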

Additional observations from a re-analysis of the deposited data

Results flagged for a closer look

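Among 18 groups of 4 libraries examined for the member genes, 1 had a library apart from the rest by Dixon's ratio at its 95% critical value (the gap to the nearest library over the group's range). Bid was at 19.5 FPKM in IWR1 library 6, against 12.7 to 13.7 FPKM in the other IWR1 libraries, a ratio of 0.848. About 1 group in 20 is picked out by chance. Without that library the log2 fold change of Bid remained below 0 and past the threshold.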

How the results depend on the processing

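The 5 calls (Pmaip1, Bcl2l1, Mcl1, Bax, Bid) held under DESeq2, DESeq2's size factors, library totals, median-centred libraries, no filter and without any single library. Leaving out each library gave log2 fold changes of 2.18 to 2.48 for Pmaip1, 1.05 to 1.28 for Bcl2l1, -1.78 to -1.47 for Mcl1, -1.91 to -1.46 for Bax, -1.16 to -0.92 for Bid, 0.61 to 1.11 for Bcl2l10, 0.14 to 0.50 for Bcl2l11, -2.56 to -1.66 for Bbc3 and -0.86 to 1.02 for Bcl2. Bcl2 reversed without DMSO library 1 (1.02) and without IWR1 library 6 (0.20). By DESeq2 Bcl2l10 (0.91, adjusted p = 0.0296) and Bbc3 (-1.90, adjusted p = 0.0447) passed, as did Bcl2l10 without DMSO library 1 (1.11) and Bbc3 without DMSO library 3 (-2.23); the cause was not tested.

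With the shallow libraries alone, which halve the samples, Bcl2l1 missed the threshold (1.09), 1 member (Pmaip1) was called higher, 7 further apoptosis genes were higher and 9 lower, and 1906 of all genes were higher and 2088 lower. With the deep libraries alone Bid missed it (-0.89), Bcl2l10 passed (1.52), 7 further apoptosis genes were higher and 16 lower, and 2063 of all genes were higher and 2802 lower. Within 100 kb, 5 members had a more open and 2 a less open region. The difference of Bcl2l11's share of proapoptotic transcripts (IWR1 minus DMSO, 4.21 percentage points of FPKM) reversed to -1.65 as a share of raw counts. That of Bcl2l1's share of prosurvival FPKM (0.20 percentage points) reversed to -0.12 without DMSO library 1, with a range of -0.12 to 0.79 over the libraries left out. For the 28 named further genes, 385 of 420 values stayed on their side of the threshold, 28 lost and 7 gained a call, and 0 reversed. No paired analysis was possible because the IWR1 columns do not carry the replicate numbers of the labels, and the planned replicate block was not run. Low counts limit Bcl2, Bak1 and Bbc3.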
